A study of Mus musculus with 9 samples.

Results

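Heparan sulfate is a long sugar chain that is built on core proteins of the cell surface and then cut and sulfated in patterns that set which growth factors it binds. The genes described here make, modify or carry that chain: 33 names cover the enzymes that polymerise it, the sulfotransferases and the epimerase that modify it, the sulfatases that trim it outside the cell, and the glypicans and syndecans that carry it. They were taken by gene name from a table of 33495 genes, where 32 of the 33 names were found and 28 had a level in all 3 groups of samples. RNA was sequenced from genetically labelled neural crest cells sorted from cultured C57BL/6 mouse embryo explants of stage E9.5, whose head above the first arch and whose tail had been removed. Embryos with a conditional knockout, in the neural crest, of the transcription factor gene Mef2c were given endothelin-1 (ET-1), a secreted peptide that acts on crest cells of the pharyngeal arches. Wild-type embryos were given ET-1 or phosphate-buffered saline (PBS). ET-1 was added at 10 µM after 1 h of recovery, and all explants were then cultured for 12 to 15 h. Each group held 3 samples. The sources used here name neither the line that deletes Mef2c nor the line that labels the crest, and do not say whether a sample pooled embryos. No mutant given PBS was analysed here, so a difference present without ET-1 and a changed response to ET-1 cannot be told apart.

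Heparan sulfate chains start on a short linker attached to a serine of the core protein, are extended by the EXT polymerases, and are then N-sulfated, epimerised, and sulfated at the 2-O, 6-O and, most rarely, 3-O positions. Glypicans are held to the membrane by a lipid anchor and syndecans span it. In the neural crest and its surroundings such proteoglycans are known as co-receptors for fibroblast growth factors, WNT and BMP ligands and as receptors for matrix.

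A single level per group was given by the authors, in FPKM (fragments scaled to gene length and to sequencing depth), so no value carries an error between samples. Pooled reads per group, recovered from genes with 1 exon, came to 46930101 in the mutant with ET-1, 19801229 in wild type with ET-1 and 21507319 in wild type with PBS. Fold intervals are 95% exact counting intervals from these reads and do not cover the spread between samples. A gene was called when the p-value in the authors' deposited table, adjusted by the Benjamini-Hochberg method over all genes with at least 1 FPKM in either group, was under 0.05. Every adjusted p below was calculated here from those deposited p-values. The words rose and fell are kept for called genes. How far these p-values cover the spread between samples is not known. Mef2c itself stood at 10.1 FPKM in the mutant with ET-1, 25.2 FPKM in wild type with ET-1 and 7.71 FPKM in wild type with PBS, a value over the whole gene, and the deleted exons are not known here, so it is a limited check of the labels. Of 12 neural crest markers 11 were measured, and their summed level was 273 FPKM in the mutant with ET-1, 260 FPKM in wild type with ET-1 and 174 FPKM in wild type with PBS. Markers of arch mesenchyme were low. Dlx2 was at 3.72 FPKM in the mutant with ET-1, 3.40 FPKM in wild type with ET-1 and 5.76 FPKM in wild type with PBS, and Twist1 at 0.936, 1.28 and 1.496 FPKM, and neither was called in either comparison. Prrx1 was under 1 FPKM in all 3 groups and Dlx5 was not measured. Markers of the neural tube were also present, with 4 of 6 measured and summed levels of 95.5, 95.6 and 105 FPKM in the same groups.

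Among the measured genes the levels spanned a wide range, from Hs3st5 and Gpc5 near the bottom to Gpc3 at the top. Gpc3, a glypican, stood at 80.1 FPKM in the mutant with ET-1, 81.7 FPKM in wild type with ET-1 and 82.5 FPKM in wild type with PBS, above 95.5% of all measured genes in wild type with PBS. Sulf2, an extracellular sulfatase that removes 6-O-sulfate, was next at 53.0, 47.3 and 43.6 FPKM. The 6-O-sulfotransferase gene Hs6st1 was at 28.4, 29.3 and 32.8 FPKM and the 2-O-sulfotransferase gene Hs2st1 at 29.7, 30.2 and 28.7 FPKM. These levels were close to each other in all 3 groups. Hs3st5, a further 3-O-sulfotransferase gene, was at 0.0900, 0.164 and 0.181 FPKM and the glypican gene Gpc5 at 0.335, 0.301 and 0.378 FPKM. Both were below 1 FPKM in every group and were not tested. Hs3st2 was listed at 0 in all 3 groups. Hs3st6, Hs6st3 and Ndst4 held whole numbers of at most 12 with a deposited p of 1 and were counted as not measured. Hs3st4 was the name not found among the genes of the table, so it has no level here.

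**Figure D1:**
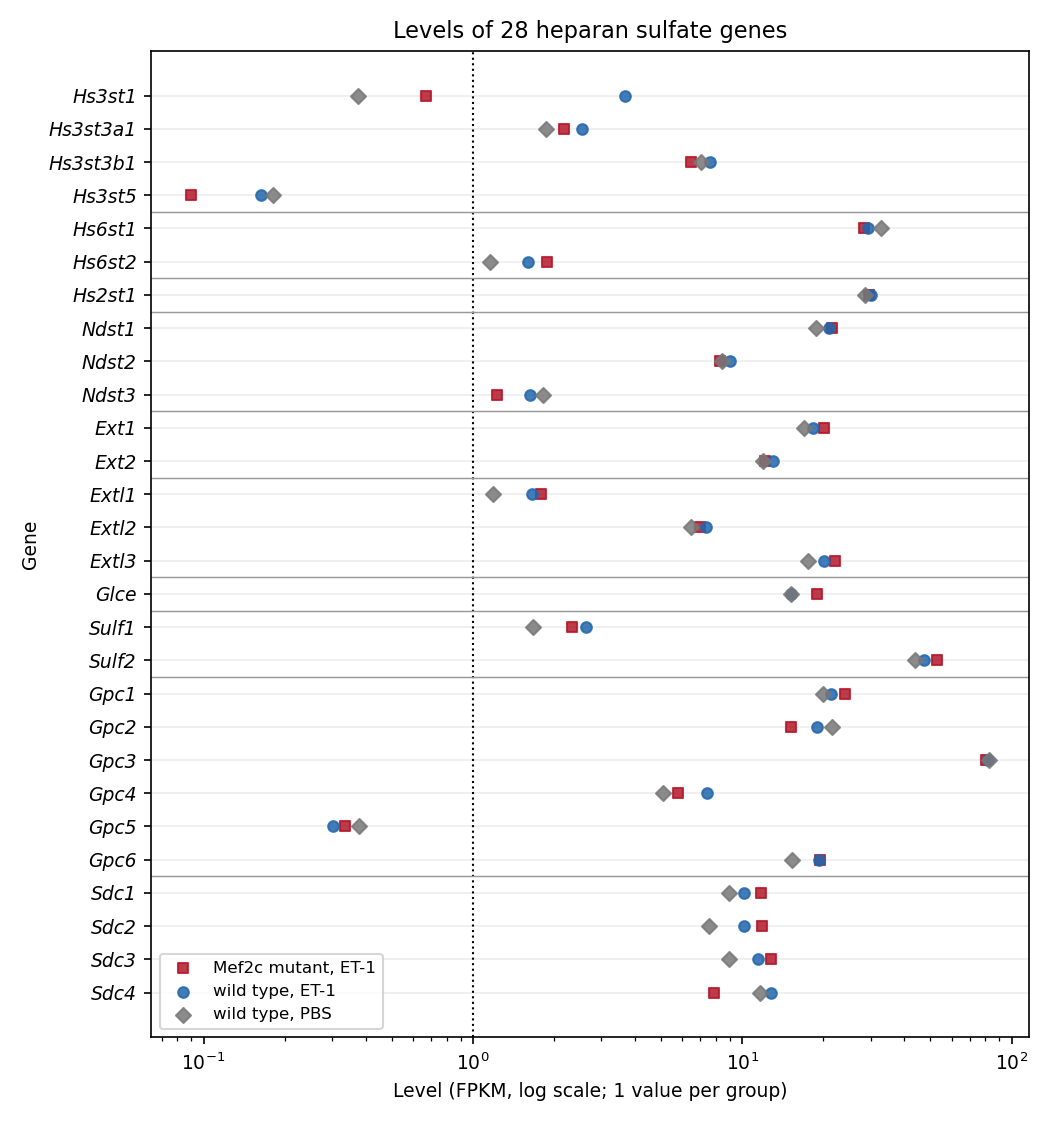
Level in FPKM (log axis) of the 28 measured genes, with 1 point per group and no error because the table held a single value per group. Grey lines separate gene families and the dotted line marks 1 FPKM. For most genes the 3 points lie close together, while Hs3st1 lies at 0.669 FPKM in the mutant with ET-1, 3.67 FPKM in wild type with ET-1 and 0.375 FPKM in wild type with PBS.

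The first comparison asked which genes ET-1 changes in wild-type crest, and 1 of the 26 genes tested rose and 0 fell. The gene that rose was Hs3st1, which encodes a heparan sulfate glucosaminyl 3-O-sulfotransferase, an enzyme best known for completing the antithrombin-binding site of heparin. Over all genes 0.533% were called in this comparison, 0.39% up and 0.143% down. In the second comparison, of the mutant with wild type under ET-1, 0 of 26 genes rose and 2 fell, namely Hs3st1 and the syndecan gene Sdc4, where 4.94% of all genes were called, 1.18% up and 3.75% down. At an unadjusted deposited p under 0.05, 2 of the 26 passed with ET-1, Hs3st1 and Gpc6, both with the higher FPKM under ET-1, beside 4.51% of all genes, 2.49% up and 2.01% down. In the mutant 2 passed at that level, again Hs3st1 and Sdc4, beside 11.6% of all genes, 4.45% up and 7.12% down. Both comparisons share the wild-type samples given ET-1, so they are not independent of each other.

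Hs3st1 (ENSMUSG00000051022) spans bases 40005174 to 40146714 of chromosome 5 (mm9). Hs3st1 was at 0.669 FPKM in the mutant with ET-1, 3.67 FPKM in wild type with ET-1 and 0.375 FPKM in wild type with PBS, resting on 70, 162 and 18 pooled reads. Wild type with ET-1 thus stood above the other groups, which were both under 1 FPKM. Its level there was still modest, above 36.4% of all measured genes. Under ET-1 it was 9.78 times the PBS level (interval 5.99 to 16.9; adjusted p = 8.07e-05 from the authors' deposited table). On the log2(FPKM + 1) scale, where folds of low genes shrink, the rise was 1.76, and Hs3st1 ranked 8 from the top of 15395 genes. Hs3st1 passed the filter on low levels only through the group in which it was highest.

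In the mutant with ET-1, Hs3st1 fell to 0.182 of its level in wild type with ET-1 (interval 0.136 to 0.243; adjusted p = 1.96e-05 from the authors' deposited table). The mutant with ET-1 was at 1.78 times wild type with PBS (interval 1.05 to 3.18), a ratio that was not tested. In bulk samples, a change in the number of expressing cells and a change in RNA per cell cannot be told apart. Of the 11 measured neural crest markers, 5 rose with ET-1 in wild type, beside 0.39% of all genes. Sox10 was among them, at 61.0 FPKM with ET-1 against 35.7 FPKM with PBS. In the mutant Tcfap2b rose and Ets1 fell, beside 1.18% of all genes up and 3.75% down. The summed crest level was 273 FPKM in the mutant against 260 FPKM in wild type, both with ET-1. The part of these markers in the Hs3st1 result was not tested.

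The authors' deposited table of induced genes, 406 in all, lists Hs3st1 with a normalized induction fold of 8.73, a mark for a MEF2 binding motif and a mark for dependence on Mef2c. For Hs3st1 the list holds the same deposited p and wild-type levels that the ET-1 call rests on, so it is not a separate source. The motif mark is carried by 338 of the listed genes, or 83.3%, and the dependence mark by 73, or 18.0%. Where the motif lies is not stated in the sources used here. The 250 bases before the annotated start of each called gene are printed because the calls rest on those 2 genes and the authors marked one of them for the motif. Sequences are from RefSeq on GRCm38.p6, on the gene's strand, 5′ to 3′, with capitals for the strings GGGCGG and TATAA on either strand.
Hs3st1: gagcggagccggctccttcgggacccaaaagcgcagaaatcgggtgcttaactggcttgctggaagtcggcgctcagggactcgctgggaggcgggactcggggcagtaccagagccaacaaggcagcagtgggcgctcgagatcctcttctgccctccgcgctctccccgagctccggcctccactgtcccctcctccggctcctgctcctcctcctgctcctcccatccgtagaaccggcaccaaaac
Sdc4: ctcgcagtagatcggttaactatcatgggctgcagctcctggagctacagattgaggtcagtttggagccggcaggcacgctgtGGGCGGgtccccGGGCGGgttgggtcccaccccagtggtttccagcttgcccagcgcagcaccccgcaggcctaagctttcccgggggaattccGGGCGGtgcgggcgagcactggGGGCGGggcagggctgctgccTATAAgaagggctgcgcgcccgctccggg
The Hs3st1 window is chr5:39644632-39644881 on the minus strand and the Sdc4 window chr2:164443189-164443438 on the minus strand, both in GRCm38.p6. The gene spans given here are in mm9, and whether a window precedes or lies within the measured gene model was not checked. The Hs3st1 window held 0 matches to GGGCGG and 0 to TATAA, and the Sdc4 window held 4 and 1, none of them overlapping. Of 32851 windows of the same length in the promoter table, 32.7% held GGGCGG and 22.8% held TATAA. The MEF2 consensus was found in 2.92% of all windows and in 0 of the 28 windows of 24 matched genes of the set. Of those 28 windows, 18 held GGGCGG and 6 held TATAA. Both printed windows were rich in G and C, at 66.0% for Hs3st1 and 68.0% for Sdc4. The median was 52.4% over all windows and 64.8% over the 28 windows of the set, so this content was not particular to the called genes.

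The other tested 3-O-sulfotransferase genes also had their highest level in wild type with ET-1, but by much less. Hs3st3b1, which encodes an enzyme of the type that makes the herpes simplex virus gD receptor, was at 6.47 FPKM in the mutant with ET-1, 7.59 FPKM in wild type with ET-1 and 7.03 FPKM in wild type with PBS, a 1.08-fold difference with ET-1 (interval 0.974 to 1.20) with an adjusted p of 1. In the mutant its fold was 0.853 (interval 0.780 to 0.933; adjusted p = 0.726 from the authors' deposited table). Its relative Hs3st3a1 was at 2.19, 2.54 and 1.87 FPKM. Neither passed the test in either comparison. In FPKM summed over the 4 measured genes, Hs3st1 made up 7.10% in the mutant with ET-1, 26.3% in wild type with ET-1 and 3.97% in wild type with PBS. The family sum was 9.42, 14.0 and 9.45 FPKM in those groups, and Hs3st3b1 was the most abundant member in all of them. In GENCODE M21, 44.5% of the 31-base words of Hs3st3a1 transcripts also occur in other genes, and 9.81% of those of Hs3st3b1 occur in Hs3st3a1, so the split of reads among these loci is uncertain. For Hs3st1 the share was 2.47%.

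**Figure D2:**
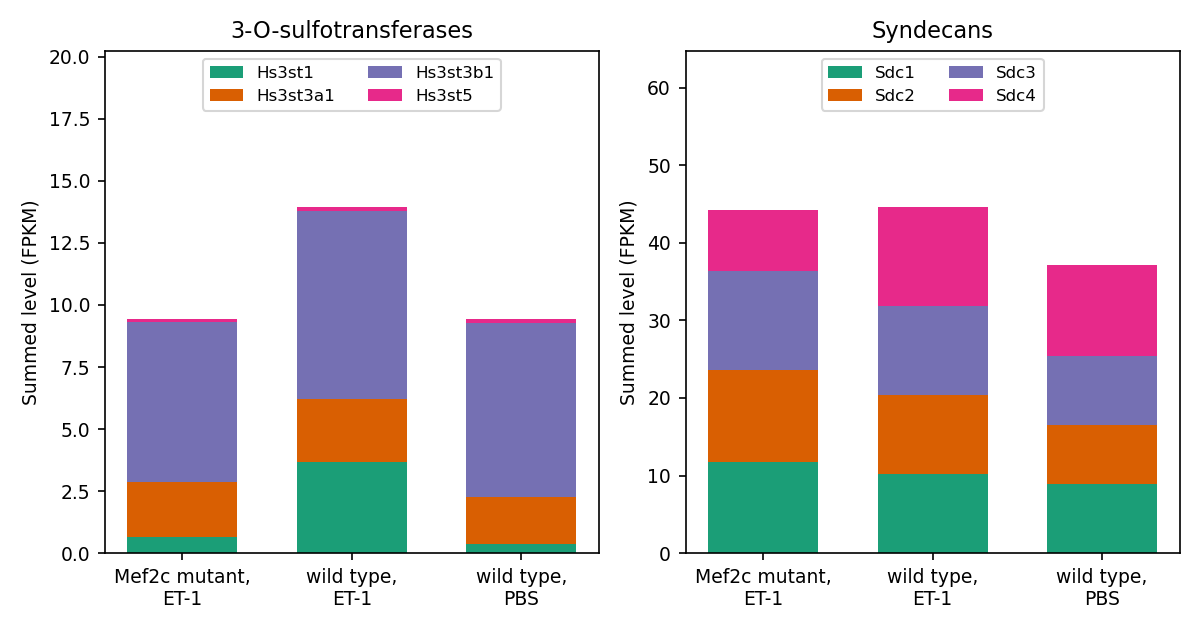
Summed level in FPKM of the measured 3-O-sulfotransferase genes (left) and syndecan genes (right) in the mutant with ET-1, wild type with ET-1 and wild type with PBS, stacked by gene. The Hs3st1 segment is 3.67 FPKM in wild type with ET-1 and under 1 FPKM in the other groups, and the Sdc4 segment is 7.86 FPKM in the mutant, the smallest of its 3 values.

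Syndecan genes encode membrane-spanning proteoglycans that bind matrix and growth factors, and they are described here from Sdc4, which fell in the mutant. Sdc4 (ENSMUSG00000017009), whose protein gathers at focal adhesions, spans bases 164249747 to 164269387 of chromosome 2 (mm9). It was at 7.86 FPKM in the mutant with ET-1, 12.8 FPKM in wild type with ET-1 and 11.6 FPKM in wild type with PBS, on 939, 646 and 638 reads. The mutant stood below both wild-type groups, which lay near each other. The mutant held 0.613 of the level of wild type with ET-1 (interval 0.554 to 0.679; adjusted p = 0.0213 from the authors' deposited table). With ET-1 in wild type the fold was 1.10 (interval 0.984 to 1.23), and the test was not passed. Against wild type with PBS the mutant with ET-1 was at 0.674 (interval 0.609 to 0.747), which was not tested.

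The Sdc4 call in the mutant was lost under the Benjamini-Yekutieli adjustment, where p-values of the authors' deposited table gave 0.217. Over the alternatives run it ranged from 0.0154 to 0.217. Markers of epithelium, 4 of 5 measured, summed to 2.91 FPKM in the mutant with ET-1, 4.09 FPKM in wild type with ET-1 and 5.94 FPKM in wild type with PBS, and erythroid markers, 5 of 6 measured, to 17.6, 31.5 and 32.98 FPKM. Macrophage markers, 2 of 4 measured, summed to 13.2, 5.96 and 6.22 FPKM. Most of this sum was Cd68, at 12.4, 5.54 and 5.70 FPKM, which was called higher in the mutant. Csf1r was under 1 FPKM in all 3 groups. Aif1 went the other way, listed at 0 in the mutant with ET-1 and at 0.952 and 0.712 in wild type with ET-1 and with PBS. Ptprc was not measured. Endothelial markers, 4 of 5 measured, summed to 1.83, 2.46 and 2.97 FPKM. Mesoderm markers, 4 of 5 measured, summed to 7.24, 7.38 and 5.55 FPKM. Cardiac muscle markers, 2 of 5 measured, summed to 5.98, 4.71 and 3.02 FPKM, the highest sum being in the mutant. Actc1 made up most of the cardiac sum, at 5.74, 4.59 and 2.87 FPKM. Of the unmeasured cardiac genes, Tnnt2 was listed at 0, 6 and 2, Myh7 at 2, 0 and 2, and Nkx2-5 at 0 in all groups. No epithelial, erythroid, endothelial, mesoderm or cardiac marker was called in either comparison. The part of these lists in the Sdc4 result was not tested.

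The other 3 syndecans each had their highest level in the mutant and their lowest in wild type with PBS, and none passed the test in either comparison. Sdc1 was at 11.8 FPKM in the mutant with ET-1, 10.2 FPKM in wild type with ET-1 and 8.93 FPKM in wild type with PBS. Sdc2, a syndecan of mesenchymal cells, was at 11.8, 10.2 and 7.54 FPKM, and Sdc3, known from the developing nervous system, at 12.8, 11.5 and 8.97 FPKM. Relative to wild type, both with ET-1, the mutant folds were 1.16 for Sdc1 (interval 1.08 to 1.25), 1.16 for Sdc2 (1.06 to 1.27) and 1.11 for Sdc3 (1.05 to 1.19). For Sdc3 the fold with ET-1 was 1.28 (interval 1.18 to 1.39), and the adjusted p was 1 with ET-1 and 0.966 in the mutant. Sdc4 made up 17.8% of summed syndecan FPKM in the mutant with ET-1, 28.7% in wild type with ET-1 and 31.4% in wild type with PBS. The sum itself was 44.2, 44.6 and 37.1 FPKM. Within each wild-type group Sdc4 was the most abundant syndecan, and in the mutant the least.

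Glypicans, whose lipid-anchored proteins modulate WNT, hedgehog and growth factor signals, had 5 members tested and 0 called in either comparison. Over all genes 0.533% were called with ET-1 and 4.94% in the mutant, so so few genes could readily hold no call. Gpc3 made up 55.3% of summed glypican FPKM in the mutant with ET-1, 54.9% in wild type with ET-1 and 57.0% in wild type with PBS, and its fold was 0.991 with ET-1 (interval 0.951 to 1.03) and 0.981 in the mutant (interval 0.947 to 1.02), with adjusted p of 1 and 0.953 from the authors' deposited table. Gpc6, a glypican of mesenchyme, was at 19.4, 19.2 and 15.3 FPKM in those groups. Its fold with ET-1 was 1.26 (interval 1.20 to 1.32), and the authors' deposited table lists it as induced, with a normalized fold of 1.24, an unadjusted p = 0.0313 and neither a motif mark nor a dependence mark. Adjusted over all genes, the p from the authors' deposited table was 0.903, so Gpc6 was not called here. In the mutant its fold was 1.01 (interval 0.973 to 1.05), with an adjusted p of 0.993. By deposited p it ranked 534 of 15395 genes tested.

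Gpc4 was at 5.78 FPKM in the mutant with ET-1, 7.38 FPKM in wild type with ET-1 and 5.07 FPKM in wild type with PBS. Its highest level was thus in wild type with ET-1, where Hs2st1, Ndst2, Ext2, Extl2, Sulf1 and Sdc4, among others, were also highest. For Gpc4 the folds were 1.46 with ET-1 (interval 1.25 to 1.70) and 0.783 in the mutant (interval 0.693 to 0.886), and neither passed the test. Gpc2, which is expressed in developing neurons, was at 15.2, 18.9 and 21.5 FPKM. Its fold in the mutant was 0.802 (interval 0.759 to 0.849; adjusted p = 0.446 from the authors' deposited table), and no other uncalled gene of the set had a smaller adjusted p in that comparison. In GENCODE M21, 52.0% of the 31-base words of Gpc2 transcripts are shared with another gene model. That is not the annotation behind the authors' levels, so how far Gpc2 reads were split in them is not known. Gpc1 was at 24.2, 21.4 and 20.01 FPKM, with 18.4% of its words shared.

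None of the enzymes that build the chain passed the test in either comparison, beside 0.533% of all genes with ET-1 and 4.94% in the mutant. Ext1 and Ext2, the subunits of the copolymerase, differed in level. Ext1 was at 20.2 FPKM in the mutant with ET-1, 18.3 FPKM in wild type with ET-1 and 16.9 FPKM in wild type with PBS, and Ext2 at 12.2, 13.0 and 12.0 FPKM. Ext1 had folds of 1.08 with ET-1 (interval 1.03 to 1.14) and 1.10 in the mutant (interval 1.06 to 1.15), with adjusted p of 1 and 0.966 from the authors' deposited table. The ratio of Ext1 to Ext2 was 1.65, 1.41 and 1.41 in these groups. Extl3, an EXT-like glycosyltransferase that takes part in starting the chain, was at 22.2, 20.1 and 17.6 FPKM, Extl2 at 6.99, 7.34 and 6.44 FPKM, and Extl1 at 1.79, 1.66 and 1.19 FPKM. Extl3 had folds of 1.14 with ET-1 (interval 1.08 to 1.21) and 1.10 in the mutant (interval 1.05 to 1.16), with adjusted p of 1 and 0.966. Ndst1, the leading N-deacetylase and N-sulfotransferase, was at 21.5, 21.0 and 18.8 FPKM, with folds of 1.12 with ET-1 (interval 1.06 to 1.18) and 1.02 in the mutant (interval 0.977 to 1.07), and adjusted p of 1 and 0.999. Ndst2 was at 8.27, 8.97 and 8.40 FPKM and Ndst3 at 1.23, 1.63 and 1.81 FPKM. The level in the mutant with ET-1 over that in wild type with PBS, a ratio that was not tested, was 1.503 for Extl1 (interval 1.21 to 1.88) and 0.677 for Ndst3 (interval 0.602 to 0.762).

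Among the enzymes that modify the chain further, Glce, the epimerase that turns glucuronic into iduronic acid, was at 18.9 FPKM in the mutant with ET-1 and at 15.2 and 15.1 FPKM in wild type with ET-1 and with PBS. Its fold with ET-1 was 1.004 (interval 0.932 to 1.08), with an adjusted p of 1. In the mutant the fold was 1.25 (interval 1.17 to 1.33), not past the test (adjusted p = 0.653 from the authors' deposited table). Hs2st1 had a fold of 1.05 with ET-1 (interval 1.01 to 1.09) and of 0.984 in the mutant (interval 0.954 to 1.02), with adjusted p of 1 and 0.964. Hs6st1 had 0.893 with ET-1 (interval 0.844 to 0.946) and 0.972 in the mutant (interval 0.924 to 1.02), with adjusted p of 1 and 0.949. Hs6st2, the minor 6-O-sulfotransferase gene here, was at 1.88 FPKM in the mutant with ET-1, 1.60 FPKM in wild type with ET-1 and 1.16 FPKM in wild type with PBS. A gene model that overlaps Hs6st2 was at 7.21, 4.59 and 1.41 FPKM in the same groups, and reads of both loci may not be separable. The same limit holds for Ext2 and Gpc3. A model that overlaps Ext2 was at 0.414, 1.47 and 1.08 FPKM. Of the models that overlap Gpc3, mmu-mir-717 was highest, at 8.99, 9.27 and 7.25 FPKM.

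The extracellular sulfatases act on the finished chain. Sulf2 had folds of 1.08 with ET-1 (interval 1.04 to 1.12) and 1.12 in the mutant (interval 1.09 to 1.16), with adjusted p of 1 and 0.935. Sulf1, its relative, was at 2.33 FPKM in the mutant with ET-1, 2.64 FPKM in wild type with ET-1 and 1.67 FPKM in wild type with PBS. The Sulf1 fold with ET-1 was 1.58 (interval 1.37 to 1.83), after Hs3st1 the largest ratio of FPKM among the 26 tested genes, and was not past the test. Sulf2 exceeded Sulf1 by 22.8, 17.9 and 26.2 times in the 3 groups.

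**Figure D3:**
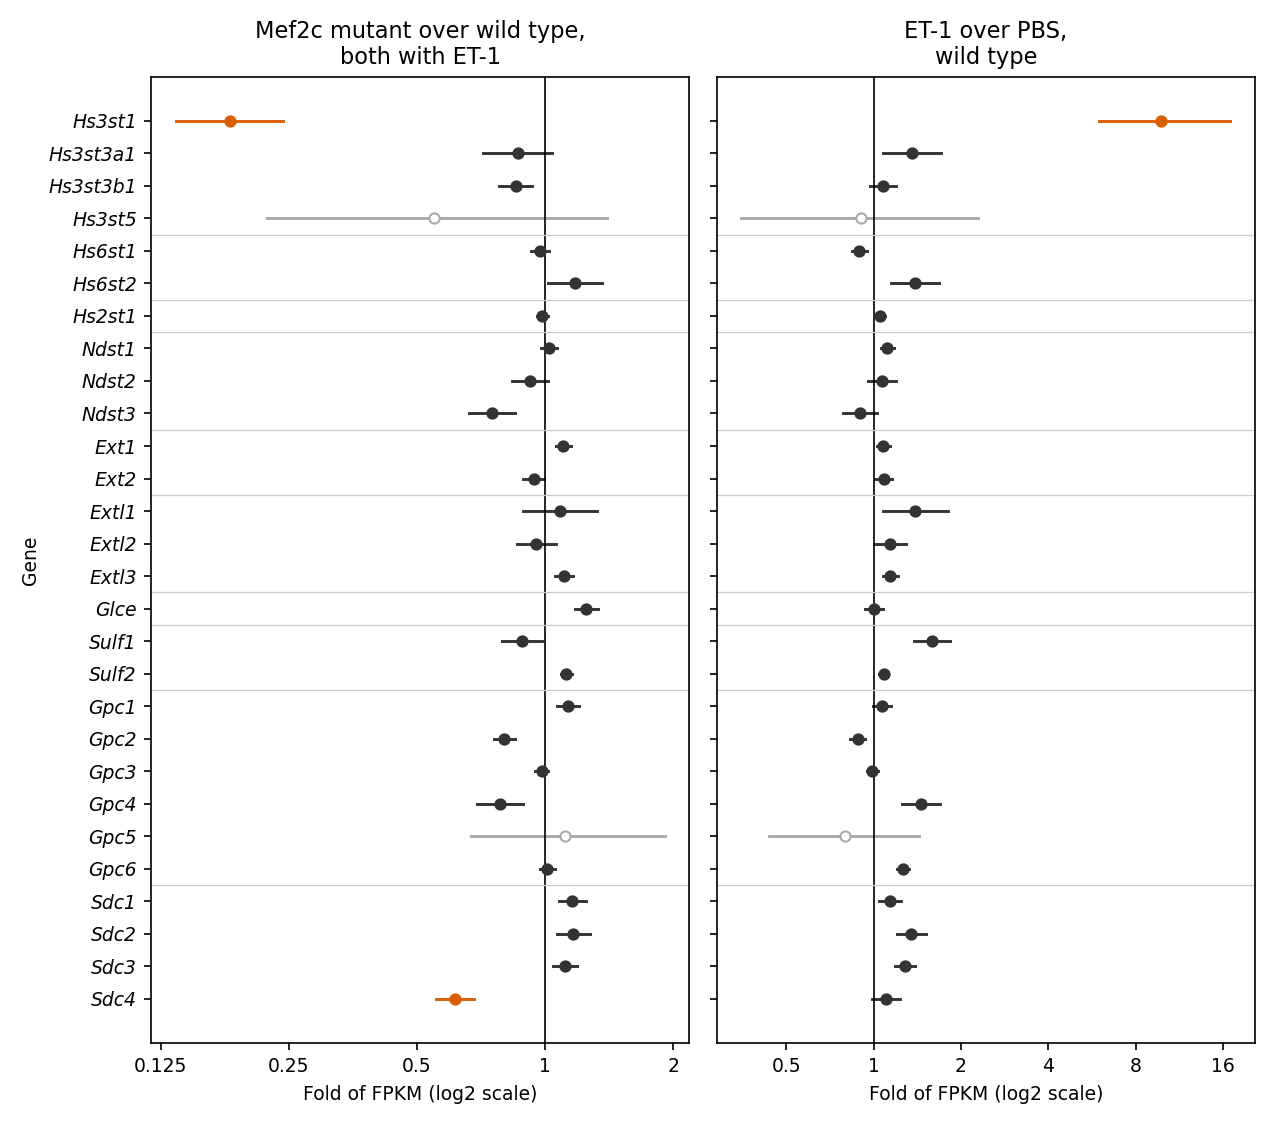
Fold of FPKM (log2 axis) for each measured gene in the mutant over wild type, both with ET-1 (left), and in wild type with ET-1 over PBS (right). Points are folds, bars are 95% counting intervals, orange marks called genes, open grey points are genes under 1 FPKM that were not tested, and the panels have different ranges. Orange points are Hs3st1 at 0.182 and Sdc4 at 0.613 on the left and Hs3st1 at 9.78 on the right.

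As a list, the 26 tested genes had a median log2 fold of 0.14 with ET-1, against 0.01 over all genes tested, and of -0.02 in the mutant, against 0.05. With ET-1, 22 of the 26 had a higher FPKM than with PBS and 4 a lower one, where 52.3% of all genes tested had a higher FPKM. In the mutant 12 were higher in FPKM and 14 lower, where 57.2% of all genes were higher. These counts of direction rest on no test.

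**Figure D4:**
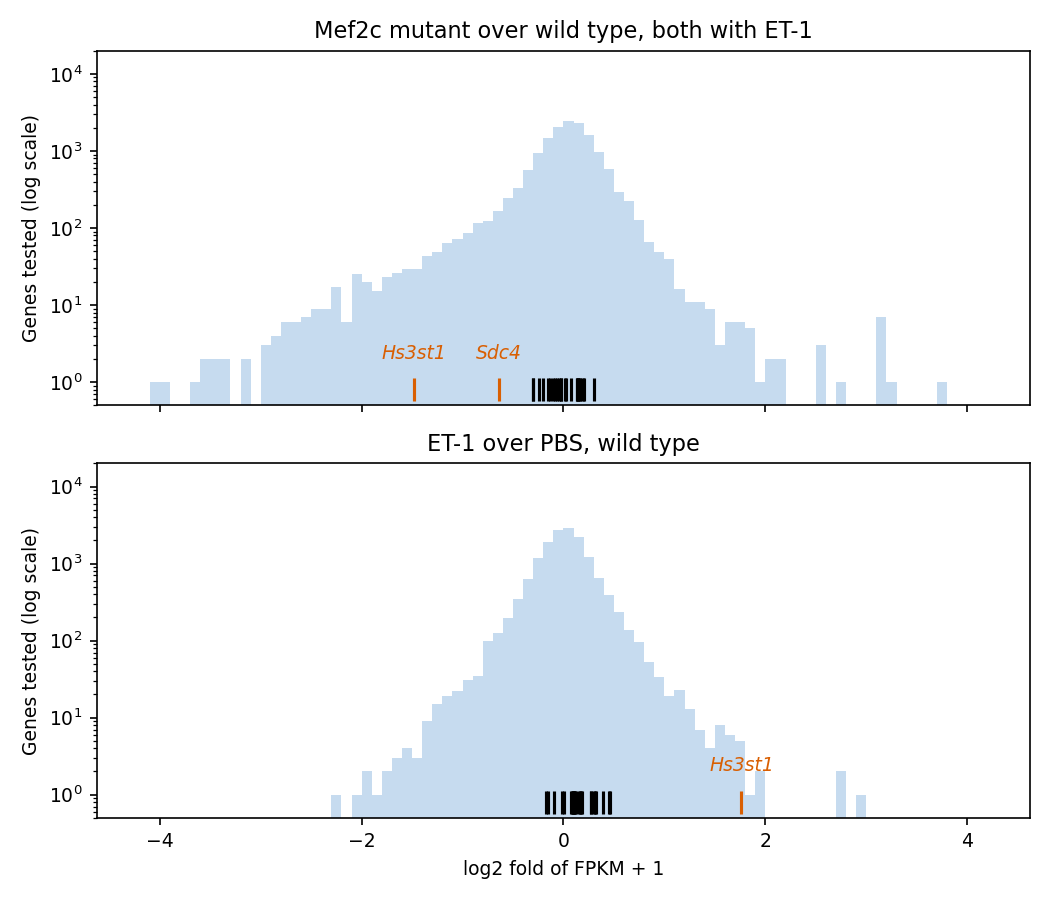
Histogram of log2 folds of FPKM + 1 over all genes tested (log count axis), for the mutant over wild type with ET-1 (top) and wild type with ET-1 over PBS (bottom). Ticks mark the 26 tested heparan sulfate genes, and orange ticks the called ones, at -1.48 for Hs3st1 and -0.64 for Sdc4 in the upper panel and 1.76 for Hs3st1 in the lower panel.

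The wider pathway was read from a list of 52 other genes, of which 48 were measured. With ET-1, 0 of 41 tested passed the test, beside 0.533% of all genes, and in the mutant 0 of 40 rose and 1 fell, beside 4.94% of all genes called. At an unadjusted deposited p under 0.05, 3 of the 41 passed with ET-1, Agrn, Hspg2 and Dse, each with the higher FPKM under ET-1, beside 4.51% of all genes. The gene that fell in the mutant was Naglu, which encodes a lysosomal enzyme that removes N-acetylglucosamine from heparan sulfate during its breakdown. Naglu (chromosome 11) was at 1.59 FPKM in the mutant with ET-1, 3.99 FPKM in wild type with ET-1 and 3.24 FPKM in wild type with PBS, on 198, 210 and 185 reads. The mutant held 0.398 of the level of wild type with ET-1 (interval 0.326 to 0.485; adjusted p = 0.0101 from the authors' deposited table). This call was lost under the Benjamini-Yekutieli adjustment, with 0.104, and the adjusted p ranged from 0.0116 to 0.104 over the alternatives run. Of the other breakdown enzymes, Ids, a lysosomal sulfatase, was at 5.84, 5.57 and 6.80 FPKM.

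Among other heparan sulfate proteoglycans, 0 of 5 tested were called in either comparison, beside 0.533% of all genes with ET-1 and 4.94% in the mutant. Agrn, the basement membrane proteoglycan agrin, was at 27.8 FPKM in the mutant with ET-1, 35.4 FPKM in wild type with ET-1 and 28.3 FPKM in wild type with PBS. Its fold in the mutant was 0.786 (interval 0.761 to 0.812; adjusted p = 0.0651 from the authors' deposited table). With only genes of at least 5 FPKM tested, this became 0.0485, within a range of 0.0485 to 0.665 over the alternatives run. Its fold with ET-1 was 1.25 (interval 1.202 to 1.299), and the authors' deposited table lists it as induced with both marks. Hspg2, perlecan, was at 17.8, 17.0 and 13.8 FPKM in those groups and is listed there as induced with the motif mark alone.

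The genes that start the linker and supply precursors were not called in either comparison, beside 0.533% of all genes with ET-1 and 4.94% in the mutant. Xylt1, a xylosyltransferase that begins the linker, was at 2.05 FPKM in the mutant with ET-1, 3.14 FPKM in wild type with ET-1 and 1.77 FPKM in wild type with PBS, with folds of 1.77 with ET-1 (interval 1.55 to 2.03) and 0.654 in the mutant (interval 0.588 to 0.728). B3gat3, which adds the glucuronic acid that completes the linker, was at 11.8, 8.81 and 9.36 FPKM. The transporters of the sulfate donor into the Golgi, Slc35b2 and Slc35b3, had their highest level in wild type with PBS. Slc35b2 was at 9.68 FPKM in the mutant with ET-1, 9.36 FPKM in wild type with ET-1 and 12.8 FPKM in wild type with PBS, and Slc35b3 at 6.83, 5.61 and 8.43 FPKM. Chondroitin and dermatan sulfate share the linker with heparan sulfate. In that branch 0 of 12 tested genes were called in either comparison, beside the same shares of all genes. Dse, a dermatan sulfate epimerase, was at 3.82, 3.86 and 2.45 FPKM in the 3 groups, and the authors' deposited table lists it as induced, with a normalized fold of 1.55 and the motif mark alone. Chst11, a chondroitin 4-O-sulfotransferase, was at 8.83, 6.62 and 5.41 FPKM.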

How the data were processed

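RNA-seq of 9 samples in 3 groups of 3 was analysed from the authors' tables. Per the submitters' processing notes, TopHat 1.3.1, Cufflinks 1.3.0, Cuffdiff and mm9 were used; settings are not stated. Per the labels' protocols, RNA was amplified with a NuGEN Ovation kit. Per the file headers, the authors deposited an FPKM value per group, a p-value per comparison and, for induced genes, a normalized induction fold. The sources used here state neither how replicates were combined nor the test or any use of strand.

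Genes with whole-number values in both wild-type groups and a deposited p of 1 (15639) were taken as not measured, which left 17856 genes with FPKM in both wild-type groups and 17757 in all 3. There were 0 columns of other samples. Reads were recovered as multiples of the value of 1 read. In genes with 1 exon, between 91.95% and 92.24% of the values per group came within 0.02 of a whole number. For other genes the shortest length with whole reads in each group (within 0.004) was taken, times the multiple nearest the GENCODE M21 exon length. The resulting lengths were between 0.671 and 1.47 times that exon length for the 28 measured members. A wrong length changes an interval's width, not its fold. Intervals are Clopper-Pearson, treat reads as independent and leave out the spread between samples. Since PCR copies are not independent molecules, they may be too narrow for counting error as well.

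limma was planned only for values per sample. With group values, deposited p-values were adjusted by Benjamini-Hochberg over genes of at least 1 FPKM in either group (15395 for ET-1, 15459 for the mutant). Log2 folds used FPKM + 1. Alternatives were no filter, 5 FPKM, a fold of at least 2, unadjusted p, Benjamini-Yekutieli, a pseudocount of 0.1 and median centring. Every member was accounted for, with full statistics for called members, those with a deposited p under 0.05 and the most abundant of the Hs3st, Hs6st, Ndst, Ext, Sulf, Gpc and Sdc families. Of other pathway genes, called ones and the 2 with the smallest deposited p in each group were named, and the single marker genes were chosen after their values were seen. The members and lists were chosen with earlier results of these data known. Promoter motifs were searched in the 250 bases before the start. The calculations used Python 3.11.15, numpy 2.4.6, pandas 2.3.3 and scipy 1.17.1 and were tested on simulated data.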

Additional observations from a re-analysis of the deposited data

How the results depend on the processing

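A pseudocount cannot change the direction of a fold, and median centring moved the called folds little, so neither setting tests their direction. The log2 fold of Sdc4 in the mutant was -0.70 with a pseudocount of 0.1 FPKM and -0.69 with median centring, against -0.64. With only genes of at least 5 FPKM tested, 0 members were called with ET-1 and 1 in the mutant (Sdc4), because Hs3st1 is then below the filter, beside 75 and 749 calls over all genes. With an added fold of at least 2, 1 member was called in the mutant (Hs3st1), since the fall of Sdc4 was smaller than that, beside 462 over all genes. Under Benjamini-Yekutieli adjustment 1 member (Hs3st1) and 0 other pathway genes were called in the mutant, beside 537 over all genes. At an unadjusted deposited p under 0.05, 2 members (Hs3st1 and Gpc6) and 3 other pathway genes (Agrn, Dse and Hspg2) passed with ET-1, and 2 other pathway genes (Agrn and Naglu) in the mutant, beside 694 and 1788 over all genes. Hs3st1 stayed called in both comparisons under every alternative in which it was tested. Its adjusted p from the authors' deposited table was between 9.36e-05 and 0.000825 for ET-1 and between 2.25e-05 and 0.000200 for the mutant. These alternatives reuse the same deposited p-values, so they do not address the spread between samples. With a pseudocount of 0.1 FPKM the log2 fold of Hs3st1 was 2.99 with ET-1 and -2.29 in the mutant. No paired analysis was possible because the table held group values, and leaving out replicates was not run for the same reason. The 18 reads of Hs3st1 in wild type with PBS limit the precision of its folds against that group.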

Other observations

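Several members lie next to each other in the genome and differ in level. Gpc4 and Gpc3 are neighbours on the X chromosome, with 107 kb and 0 gene models of the table between them in build mm9. Gpc4 was at 5.78 FPKM in the mutant with ET-1, 7.38 FPKM in wild type with ET-1 and 5.07 FPKM in wild type with PBS, and Gpc3 was at 80.1, 81.7 and 82.5 FPKM. Gpc5 and Gpc6 are neighbours on chromosome 14, 401 kb apart with 0 models between them, and Gpc5 was at 0.335, 0.301 and 0.378 FPKM where Gpc6 was at 19.4, 19.2 and 15.3 FPKM. Hs3st3b1 and Hs3st3a1 lie 513 kb apart on chromosome 11. The ratio of their levels was 2.96 in the mutant with ET-1, 2.99 in wild type with ET-1 and 3.76 in wild type with PBS. These pairs were picked for their position after the values were seen, and no test was made between them.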
